A study of Mus musculus with 8 samples.

Results

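The genes described here are 43 regulators of pre-mRNA splicing, taken out of 15538 genes measured in cultured mouse neural stem cells. They are the protein-coding genes whose symbol begins with Hnrnp or is Srsf plus a number, together with Ptbp1, Ptbp2, Rbfox1, Rbfox2, Rbfox3, Nova1, Nova2, Srrm4, Mbnl1, Mbnl2, Celf1 and Celf2. All 43 genes that the annotation holds under this rule were in the table. They were divided by where they are known to act. The general regulators numbered 32, made up of 20 hnRNP genes, 11 SR genes and Ptbp1. The neuronal regulators numbered 6 (Ptbp2, Rbfox1, Rbfox3, Nova1, Nova2 and Srrm4). The last 5 (Rbfox2, Mbnl1, Mbnl2, Celf1 and Celf2) act in brain and in other tissues such as muscle.

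Splicing regulators bind short motifs in a transcript and decide whether a nearby exon is kept or skipped. SR proteins carry a domain rich in serine and arginine and mostly promote inclusion of exons whose enhancers they bind, whereas hnRNP proteins coat nascent RNA and often act as silencers. In neural development, Ptbp1 holds back neuronal exons in progenitors, Ptbp2 takes its place in young neurons, and Nova, Rbfox and Srrm4 proteins promote neuronal exons. Gene counts measure the abundance of the mRNAs of these regulators, and neither their protein nor the splicing of any exon.

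The libraries were made from polyadenylated RNA of primary embryonic neural stem cells of mouse brain grown as neurospheres, which are floating clusters of stem and progenitor cells. By the labels, 4 libraries were wild type (Phf23+/+) and 4 were Phf23 knockout (Phf23-/-), with Phf23 encoding a PHD finger protein that reads histone methylation. The study asked how loss of Phf23 blocks differentiation of these cells, and its title names the basic helix-loop-helix gene Tcf4. Strain, age, the design of the knockout allele, and whether replicates were separate cultures or animals are not stated in the labels, and every p-value therefore reflects only how these libraries spread. Depth ran from 15647304 to 19462516 reads a library.

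The targeted gene was higher in the libraries labelled knockout. Normalised reads are reads divided by a size factor for each library. Those of Phf23 were 720.4, 766, 788 and 919 for wild type 1 to 4, against 1607, 1528, 1429 and 1361 in those labelled knockout 1 to 4 (log2 fold change 0.89 ± 0.106 SE, limma-trend false discovery rate, FDR, 0.000581). This goes against the label, although a gene total cannot show whether only some exons were deleted. Each direction given here is therefore between libraries as labelled, and knockout 1 to 4 are names from the labels. Among 11 markers of neural stem cells and radial glia, all were measured, with Nes at 18905 normalised reads, Sox2 at 5005 and Vim at 67797 in wild type. The libraries also differed in how strongly reads depended on transcript length. The slope, in log2 units per doubling of length, lay between 0.06 and 0.26 in wild type and between -0.31 and 0.04 in the libraries labelled knockout. Changes of the called regulators are therefore given beside their value after removal, library by library, of the trend in reads with length and GC content (the length and GC trend).

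The promoters of Srsf9, Celf1 and Rbfox3 are shown because Srsf9 and Rbfox3 were the 2 regulators called higher and Celf1 was one of the 5 brain and other tissue regulators called lower. Each sequence is the 250 bases before a transcript start in RefSeq (build GRCm38.p6), on the strand of the gene. Capitals mark E-boxes, the motif CANNTG that basic helix-loop-helix factors such as the product of Tcf4 bind. It reads the same way on both strands.
Srsf9: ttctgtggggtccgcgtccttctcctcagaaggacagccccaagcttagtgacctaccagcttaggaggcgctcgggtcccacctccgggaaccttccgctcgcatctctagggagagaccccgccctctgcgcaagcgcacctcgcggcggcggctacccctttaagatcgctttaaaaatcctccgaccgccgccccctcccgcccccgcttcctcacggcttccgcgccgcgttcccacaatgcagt
Celf1: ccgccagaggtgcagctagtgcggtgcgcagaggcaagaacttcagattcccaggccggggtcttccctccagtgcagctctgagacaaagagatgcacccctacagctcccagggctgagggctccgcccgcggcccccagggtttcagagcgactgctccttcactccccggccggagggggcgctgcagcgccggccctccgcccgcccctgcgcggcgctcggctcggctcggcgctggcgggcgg
Rbfox3: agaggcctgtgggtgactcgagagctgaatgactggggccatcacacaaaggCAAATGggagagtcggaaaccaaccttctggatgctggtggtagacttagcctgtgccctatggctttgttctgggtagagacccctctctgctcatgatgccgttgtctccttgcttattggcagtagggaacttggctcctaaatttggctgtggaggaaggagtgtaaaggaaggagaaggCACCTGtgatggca

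The Srsf9 window lies at chr5:115326927-115327176 on the plus strand, just before the annotated gene, and holds 25 CpG dinucleotides and 0 E-boxes. The Celf1 window lies at chr2:90940147-90940396 on the plus strand, shares its last 15 bases with the annotated gene and holds 24 CpG and 0 E-boxes. The Rbfox3 window lies at chr11:118761042-118761291 on the minus strand. It falls within the long annotated gene, 150555 bases downstream of its 5′ end and outside its exons, and holds 3 CpG and 2 E-boxes. RefSeq windows were found for 40 of the 43 genes (58 windows), and Hnrnpll, Hnrnpul2 and Rbfox2 had none matched. The general regulators had CpG-rich starts, with a median of 23 CpG a window, against 10 for the neuronal regulators, 7 for the brain and other tissue regulators and 14 for all protein-coding genes tested. E-box shares were close to each other across the groups. An E-box was present in 57.1% of 42 general windows, 57.1% of 7 neuronal windows and 55.6% of 9 brain and other tissue windows, against 58.6% of windows of protein-coding genes tested and 66.2% of all 32851 windows. A match describes the letters and is not evidence of binding.

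Wild-type neurospheres expressed most general regulators at high level and Rbfox1, Rbfox3 and Srrm4 at low level. Per kilobase of longest annotated transcript, the highest were Hnrnpa2b1 at 6979.9 ± 113 normalised reads (SD, n = 4, as for all levels), Hnrnpk at 5876 ± 145 and Hnrnpa1 at 4991 ± 406, hnRNP proteins that coat and export mRNA. The SR gene of highest level per kilobase was Srsf2 at 2449 ± 223. The lowest were Rbfox3, the gene of the neuronal nuclear antigen NeuN, at 4.98 ± 2.67, the microexon regulator gene Srrm4 at 6.29 ± 0.349, Rbfox1 at 10.5 ± 3.59 and the SR gene Srsf12 at 24.8 ± 5.42. Rbfox3 and Srrm4 did not differ beyond their spread, and these 4 genes also came last when the length of all exons was used.

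The neuronal group was uneven on this scale. Ptbp2 stood at 773 ± 52.6 normalised reads per kilobase, Nova1 at 296 ± 30.5 and Nova2 at 230.4 ± 15.1, far above Rbfox1, Rbfox3 and Srrm4. Rbfox2, the member of its family known for expression outside neurons, stood at 272 ± 16.3, overlapping Nova1 in spread. Celf1 and Celf2, which bind GU-rich RNA, stood at 678 ± 57.0 and 634 ± 81.1, and Mbnl1 and Mbnl2, the muscleblind factors sequestered by repeat RNA in myotonic dystrophy, at 337 ± 44.6 and 287 ± 36.0. The general regulators together took 1.29 ± 0.0586% of normalised reads in wild type, the brain and other tissue regulators 0.0927 ± 0.00873% and the neuronal regulators 0.0413 ± 0.00229%.

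**Figure D1:**
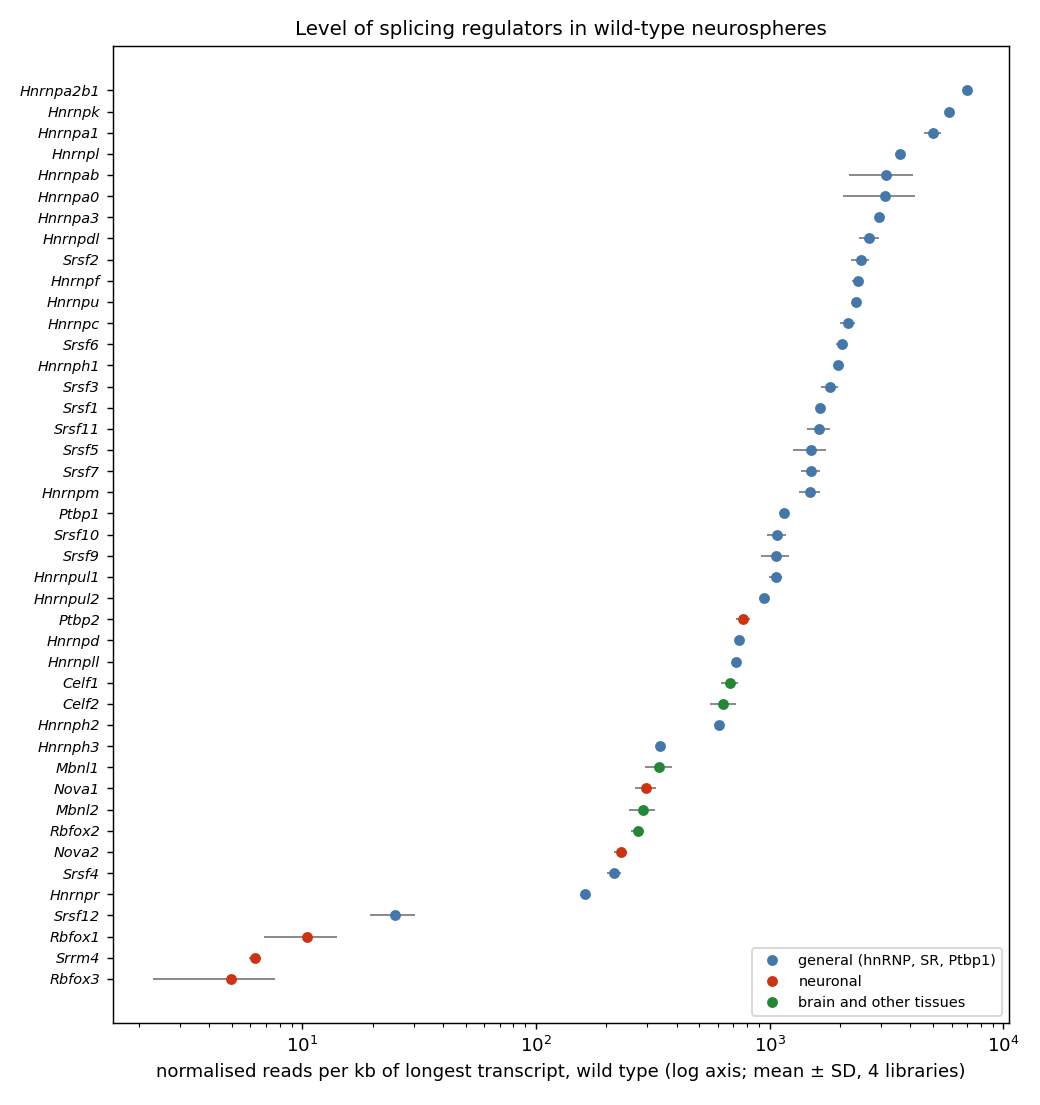
Level of each splicing regulator in wild-type neurospheres, as normalised reads per kilobase of longest transcript on a log axis (points, mean; bars, SD of 4 libraries; colours, groups). Hnrnpa2b1, Hnrnpk and Hnrnpa1 lie at the top, and Rbfox1, Srrm4 and Rbfox3 at the bottom at 10.5, 6.29 and 4.98.

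Between genotypes, most general regulators were not called, all 5 brain and other tissue regulators fell, and Rbfox3 rose. The 5 falls were no longer called once the length and GC trend, on the longest transcript, was subtracted, and the rise of Rbfox3 was. With the median length of the protein-coding transcripts of a gene in its place, 3 of the 5 were called lower. By limma-trend at an FDR under 0.05, 2 of the 43 genes were called higher and 9 lower in those labelled knockout (25.6%). Over all genes 29.6% were called, 14.8% higher and 14.8% lower, so the share of members called was close to the background. Scaling by library size only gave 1827 genes higher and 2757 lower, in place of 2301 and 2292. The general regulators had 1 called higher and 3 lower of 32 (12.5%), the neuronal regulators 1 and 1 of 6, and the brain and other tissue regulators 0 and 5 of 5. The count of 0 higher in the brain and other tissue group was the same by edgeR, DESeq2 and limma-voom and at an unadjusted limma-trend p under 0.05. The median log2 fold change was -0.07 for the general, -0.13 for the neuronal and -0.52 for the brain and other tissue regulators, against 0.00 for all genes. The count of lower calls among the 43 was 4 without wild type 1, wild type 2 or knockout 1, with 2 of these in the brain and other tissue group each time. It was 5 without knockout 3 and 6 without wild type 3. In these bulk samples, fewer cells of a type and less RNA per cell cannot be told apart.

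Libraries of the genotypes did not overlap for 17 of the 43 genes (39.5%), 1 higher and 16 lower in those labelled knockout, against 27.7% of all genes (13.6% higher and 14.2% lower). Of the 16 lower, 10 were general regulators. The share of normalised reads taken by all 43 genes was 1.42 ± 0.0484% in wild type and 1.28 ± 0.0851% in those labelled knockout. That of the brain and other tissue regulators was 0.0927 ± 0.00873% and 0.0619 ± 0.00838%, with 0.0827% in the lowest wild-type library and 0.0734% in the highest labelled knockout.

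**Figure D2:**
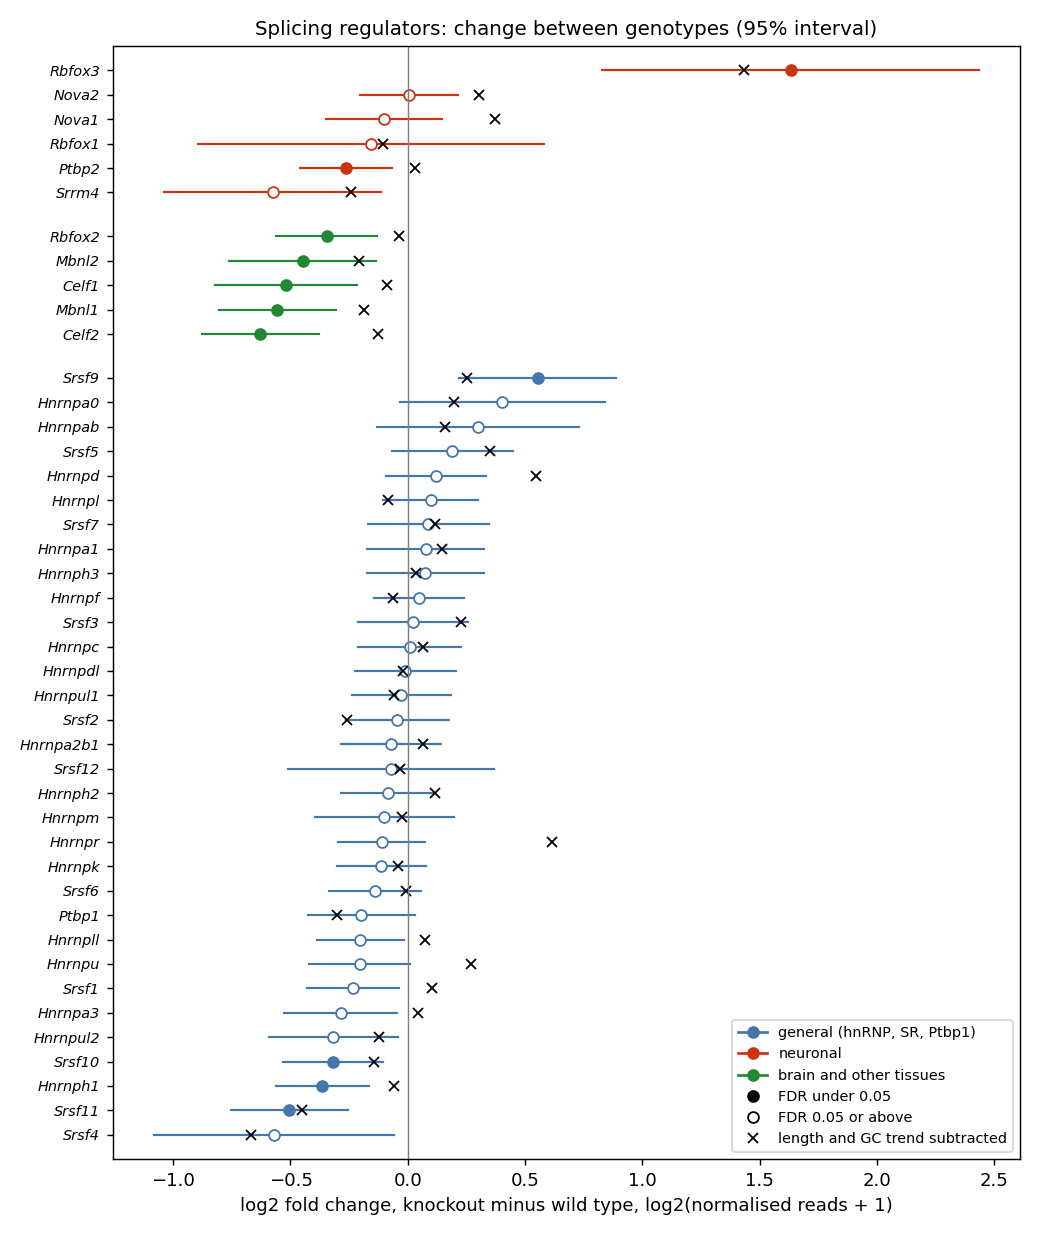
Log2 fold change of each splicing regulator, libraries labelled knockout minus wild type, on the log2(normalised reads + 1) scale, with 95% intervals and colours by group. Rbfox3 stands alone at 1.63, the 5 brain and other tissue regulators lie from -0.63 to -0.35, and most general regulators have intervals that cross 0.

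The subtraction of the length and GC trend changed which regulators were called. It left 5 higher (Rbfox3, Nova1, Nova2, Hnrnpr and Hnrnpd) and 2 lower (Srsf11 and Ptbp1) of 43, where 18.4% of all genes were called (10.5% higher and 7.86% lower). The brain and other tissue group had 0 called there (1 at an unadjusted p under 0.05) and a median of -0.13, the general regulators 2 higher and 2 lower with a median of 0.04, and the neuronal regulators 3 higher with a median of 0.17. When the trend used the median length of the protein-coding transcripts of a gene in place of the longest, 3 members were higher and 5 lower (20.7% of all genes called, 11% higher and 9.73% lower). In that fit Celf2, Mbnl1 and Rbfox2 were among the lower. Without the 4 libraries of steepest slope (wild type 1 and 2 and those labelled knockout 1 and 2), Rbfox3 was higher and Celf2, Mbnl1 and Hnrnph1 lower (9.15% of all genes called, 4.61% higher and 4.54% lower). With the length slope as a covariate in the model, 0 of 43 were called by limma-trend (1.09% of all genes, 0.656% higher and 0.438% lower), with 1 higher and 9 lower at an unadjusted p under 0.05. The covariate and the genotype largely coincide in these libraries.

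Rbfox3 was the neuronal regulator that rose. Rbfox3 (ENSMUSG00000025576, chromosome 11, 118489762 to 118911597, minus strand, coordinates of mm10 here and below) had 12.8, 19.2, 5.63 and 25.2 normalised reads in the 4 wild-type libraries in order, which are 13, 20, 5 and 26 recovered reads. It had 44.3, 42.1, 43.7 and 49.9 in the libraries labelled knockout 1 to 4, from 46, 40, 47 and 51 reads. Every library labelled knockout was above every wild-type library, and the wild-type values were the more scattered. The means were 15.7 ± 8.42 and 45.0 ± 3.39, a 2.87-fold difference (log2 fold change 1.63 ± 0.371, 95% interval 0.83 to 2.44, limma-trend FDR = 0.0100). After subtraction of the trend the change was 1.43 (FDR = 0.0136) and 1.86 without the 4 libraries of steepest slope (FDR = 0.000237). It was 1.82 with the slope covariate, where it was not called (FDR = 0.216).

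Other neuronal genes did not all move with Rbfox3. Of 14 young neuron markers, all measured, 2 were called higher (Neurod1 and Gap43) and 4 lower (Map2, Bcl11b, Elavl4 and Ina). This is 42.9% called, against 29.6% of all genes. Their summed level was 24422 to 29628 normalised reads in wild type and 20973 to 22775 in those labelled knockout. Map2 alone had 14807 to 20025 and 8826 to 11634 of these, and the other 13 markers summed to 9561 to 9894 and 10398 to 13373. Without Map2 the sum was thus higher, with no overlap, in the libraries labelled knockout. Gap43 alone made up most of it, at 6077 to 6690 normalised reads in wild type and 7564 to 10748 in those labelled knockout. The sums therefore follow Map2 and Gap43 and give no direction for the other markers. The proneural gene Neurod1 rose from 65.8 ± 5.33 to 148 ± 24.9 (limma-trend FDR = 0.00166). Tubb3 and Dcx, named after their values were seen, had means of 175 and 159 in wild type and 171 and 164 in those labelled knockout, with neither called. Stmn2 was near 0 throughout, at 1.46 and 2.12. The part of neurons in the change of Rbfox3 was not tested.

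Srrm4 and Ptbp2 lay lower in the libraries labelled knockout. Srrm4, whose product drives inclusion of neuronal microexons, had 44.2, 46.1, 47.3 and 50.4 normalised reads in wild type and 24.1, 32.6, 38.1 and 31.3 in those labelled knockout. The groups did not overlap, yet the difference missed the threshold (log2 fold change -0.58 ± 0.213, limma-trend FDR = 0.0577), and it was -0.24 with the trend subtracted (FDR = 0.470). Ptbp2 (ENSMUSG00000028134, chromosome 3, 119718742 to 119784466, minus strand) fell from 3382, 3199, 3039 and 2886 to 2641, 2689, 2627 and 2453, again with no overlap. Its log2 fold change was -0.26 ± 0.0901 (limma-trend FDR = 0.0436). With the trend subtracted the difference turned to 0.03 (FDR = 0.789). The call of Ptbp2 also ended when any 1 library other than wild type 4 or knockout 2 was left out (log2 -0.28 to -0.22, FDR from 0.0684 to 0.129).

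Nova1, Nova2 and Rbfox1 were not called. Nova1, which with Nova2 encodes KH-domain regulators of synaptic transcripts, had 2362, 2225, 1987 and 1884 normalised reads in wild type and 1943, 2334, 1756 and 1859 in those labelled knockout (log2 -0.10, 95% interval -0.35 to 0.14). Nova2 had 2015, 1886, 1769.8 and 2045 against 1834, 1791, 2011 and 2121 (log2 0.01, interval -0.20 to 0.22). The genotypes overlapped for both. With the trend subtracted they were called higher, at 0.37 for Nova1 (limma-trend FDR = 0.0319) and 0.30 for Nova2 (FDR = 0.0192). With the median transcript length in the trend, Nova2 stayed at 0.32 (FDR = 0.0232) and Nova1 was at -0.08 (FDR = 0.470). Rbfox1 had few reads, with 45.1, 18.2, 32.6 and 32.0 normalised reads in wild type and 29.8, 14.7, 32.6 and 38.2 in those labelled knockout. Its interval, from -0.89 to 0.58 on the log2 scale, leaves a change of either direction possible at this depth.

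The balance of Ptbp1 and Ptbp2, which shifts as progenitors become neurons, overlapped between genotypes. Ptbp1 had 3587, 3541, 3749.9 and 3654 normalised reads in wild type and 2626, 3434, 3532 and 3146 in those labelled knockout. Each library labelled knockout was below each wild-type one, and the difference was not called (log2 -0.20 ± 0.106, limma-trend FDR = 0.171), whereas it was called at -0.30 with the trend subtracted (FDR = 0.0302). Reads of Ptbp1 per read of Ptbp2 were 1.06, 1.11, 1.23 and 1.27 in wild type and 0.995, 1.28, 1.34 and 1.28 in those labelled knockout, with means of 1.17 ± 0.0986 and 1.22 ± 0.156. These ratios are not corrected for length.

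**Figure D3:**
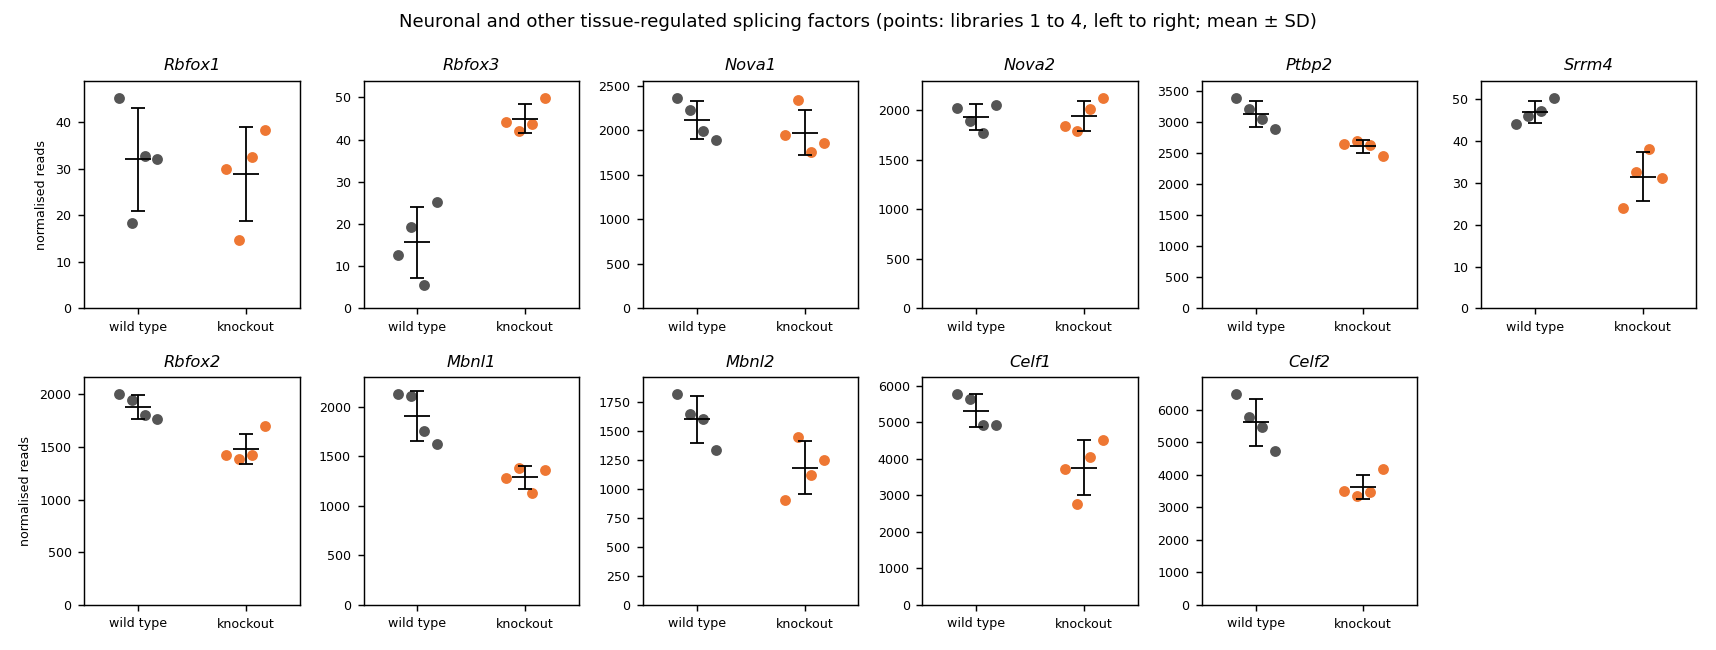
Normalised reads of the neuronal and the brain and other tissue regulators in each library (points, libraries 1 to 4 from left to right; bars, mean ± SD; each panel has its own axis from 0). Rbfox3 is higher in every library labelled knockout, while Celf1, Celf2, Mbnl1, Rbfox2, Ptbp2 and Srrm4 are lower in every one.

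All 5 brain and other tissue regulators fell. Celf2 (ENSMUSG00000002107, chromosome 2, 6539694 to 7509563, minus strand) had 6481, 5767, 5476 and 4745 normalised reads in wild type and 3495, 3355, 3481 and 4168 in those labelled knockout. The means were 5617 ± 718 and 3624 ± 368, a 1.55-fold difference (log2 -0.63 ± 0.115, limma-trend FDR = 0.00498). Mbnl1 (ENSMUSG00000027763, chromosome 3, 60472830 to 60629750, plus strand) had 2127, 2107, 1753 and 1627 against 1280.4, 1387, 1130.5 and 1362 (log2 -0.56 ± 0.116, FDR = 0.00748). Neither gene overlapped between genotypes, and both kept their calls whichever library was left out. Subtraction of the trend on the longest transcript ended both calls, at -0.13 for Celf2 (FDR = 0.174) and -0.19 for Mbnl1 (FDR = 0.118). With the median transcript length in the trend both were called lower, Celf2 at -0.45 (FDR = 0.00329). Without the 4 libraries of the steepest slopes both were called, at -0.42 (FDR = 0.00247) and -0.44 (FDR = 0.00240).

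Celf1, Mbnl2 and Rbfox2 fell by less or with more scatter. Celf1 (ENSMUSG00000005506, chromosome 2, 90940382 to 91019497, plus strand), whose promoter is printed with those of Srsf9 and Rbfox3, had 5772, 5639, 4935 and 4936 normalised reads against 3713, 2762, 4058 and 4517 (log2 -0.52 ± 0.139, limma-trend FDR = 0.0172). Mbnl2 (ENSMUSG00000022139, chromosome 14, 120275669 to 120431697, plus strand) had 1813, 1643, 1602 and 1329 against 906, 1449, 1114 and 1251 (log2 -0.45 ± 0.144, FDR = 0.0343). It was the only one of the 5 whose genotypes overlapped, through the library labelled knockout 2. Rbfox2 (ENSMUSG00000033565, chromosome 15, 77078990 to 77307004, minus strand) had 2001, 1951, 1801 and 1769 against 1427, 1384, 1421 and 1697 (log2 -0.35 ± 0.0993, FDR = 0.0222). With the trend subtracted the 3 genes were at -0.09, -0.21 and -0.04, none called (FDR = 0.455, 0.336 and 0.762). With the median transcript length in the trend, Rbfox2 was called lower, and Celf1 and Mbnl2 were not called. Celf1 lost its call without wild type 1, wild type 2 or knockout 1 (log2 -0.52 to -0.48, FDR from 0.0534 to 0.0575). Mbnl2 lost it without wild type 1, 2 or 3 or knockout 1 or 3 (log2 -0.44 to -0.33, FDR from 0.0674 to 0.111), and Rbfox2 without wild type 1 or 2 or knockout 1 or 3 (log2 -0.33 to -0.32, FDR from 0.0610 to 0.0720).

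Among the SR genes, Srsf9 rose, Srsf11 and Srsf10 fell, and 8 of 11 were not called. The share called, 27.3%, was near the 29.6% of all genes. Srsf9 (ENSMUSG00000029538, chromosome 5, 115327177 to 115333080, plus strand) encodes a small SR protein and has the shortest longest transcript of the 43 genes, at 1392 nt. It had 1294, 1369, 1526 and 1749 normalised reads in wild type and 2913, 2284, 1892 and 1739.5 in those labelled knockout. The groups overlapped, since knockout 4 was just below wild type 4. The log2 fold change was 0.55 ± 0.155 (limma-trend FDR = 0.0202). It was 0.25 with the trend on the longest transcript subtracted (FDR = 0.105) and 0.15 without the 4 libraries of steepest slope (FDR = 0.449). With the median transcript length in the trend, Srsf9 was still called higher. As deposited, its call was lost without wild type 1, wild type 2 or knockout 1 (log2 0.41 to 0.52, FDR from 0.0645 to 0.0650).

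Srsf11 was called lower both as deposited and after the trend was subtracted. Srsf11 (ENSMUSG00000055436, chromosome 3, 158010473 to 158036639, minus strand), a cofactor known for neuronal microexons, had 5635, 5340.2, 4818 and 4352 normalised reads in wild type and 3484, 3039, 3627 and 4048 in those labelled knockout. The genotypes did not overlap (log2 -0.51 ± 0.115, limma-trend FDR = 0.0102), and the change was -0.45 with the trend subtracted (FDR = 0.00443). It was -0.26 without the 4 libraries of steepest slope, where the call ended (FDR = 0.114). Srsf10 (ENSMUSG00000028676, chromosome 4, 135855747 to 135869908, plus strand), an SR protein that represses splicing when dephosphorylated, had 4268, 4355, 4028 and 3498 against 3220.2, 3451, 3070.4 and 3159 (log2 -0.32 ± 0.0982, FDR = 0.0289). Srsf10 was at -0.15 with the trend subtracted (FDR = 0.12), and its call was lost without wild type 1, 2 or 3 or knockout 1 or 3 (log2 -0.32 to -0.28, FDR from 0.0622 to 0.0977).

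The remaining 8 SR genes had log2 fold changes from -0.57 to 0.19. Srsf4 had the largest of these differences (log2 -0.57 ± 0.237, limma-trend FDR = 0.0862), with 648, 616, 699 and 713 normalised reads in wild type and 472, 244, 520.1 and 682 in those labelled knockout. The value of 244 in knockout 2 lay far below the rest. Without knockout 4 Srsf4 was called at -0.77 (FDR = 0.0108), and with the trend subtracted it was at -0.67 and not called (FDR = 0.142). An annotated transcript on the opposite strand, Gm12992, overlaps 43.0% of Srsf4 exons, and reads of the pair cannot be told apart without knowledge of strand. Srsf1, the founding member of the family, had 8464 to 9099 normalised reads in wild type and 6855 to 7922 in those labelled knockout, with no overlap and no call (log2 -0.23 ± 0.0907, FDR = 0.0674). Srsf6 also did not overlap between genotypes (log2 -0.14). Srsf2, Srsf3, Srsf5, Srsf7 and Srsf12 overlapped, with log2 fold changes from -0.07 to 0.19.

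Of the hnRNP genes, 1 of 20 was called (5%, against 29.6% of all genes), and it fell. Hnrnph1 (ENSMUSG00000007850, chromosome 11, 50376990 to 50386528, plus strand), which binds G-rich tracts, had 8981, 8986, 9336 and 8486 normalised reads in wild type and 7367, 6445, 6733 and 7286 in those labelled knockout. The genotypes did not overlap (log2 -0.36 ± 0.0913, limma-trend FDR = 0.0137), and the call held whichever library was left out. It was -0.06 with the trend subtracted (FDR = 0.667) and -0.35 without the 4 libraries of steepest slope (FDR = 0.0195). The median over the 20 hnRNP genes was -0.05, with 8 positive and 12 negative. At an unadjusted limma-trend p under 0.05, 4 of the 20 were lower and 0 higher, and DESeq2 called 3 lower and 0 higher at an FDR under 0.05, where it called 33.6% of all genes (16.8% higher and 16.7% lower).

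The hnRNP genes of highest level were not called. Hnrnpa2b1 had 24949 to 25951 normalised reads in wild type and 22362 to 27289 in those labelled knockout (log2 -0.07, 95% interval -0.28 to 0.14). Hnrnpa1, which opposes SR proteins at many exons, had 13878 to 16949 and 13899 to 18312 (log2 0.08, interval -0.17 to 0.33). Hnrnpk had 17130.3 to 18058 and 15975 to 16324, with no overlap and a log2 fold change of -0.11 (FDR = 0.356). Hnrnpa3, Hnrnpll and Hnrnpu also did not overlap and were not called, at -0.29, -0.20 and -0.21 (limma-trend FDR = 0.0696, 0.0929 and 0.134). Of these, Hnrnpa3 was called without knockout 4 (log2 -0.33, FDR = 0.0345), as was Hnrnpul2, at -0.32 with all 8 libraries (FDR = 0.0756) and -0.40 without that one (FDR = 0.0198).

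Hnrnpa0 and Hnrnpab varied within wild type as much as between genotypes. Hnrnpa0 had 5771, 6095, 10365 and 11222 normalised reads in the wild-type libraries and 12632, 9288, 10425 and 10219 in those labelled knockout. Hnrnpab had 5053, 6316, 8227 and 10195 against 11658, 7532, 7842 and 8881. The highest wild-type library was 1.94 times the lowest for Hnrnpa0 and 2.02 times for Hnrnpab, with wild type 1 and 2, the wild-type libraries of steepest length slope, low for both. Neither was called (log2 0.40 and 0.30, limma-trend FDR = 0.148 and 0.277), and Hnrnpa0 was called at 0.57 without wild type 4 (FDR = 0.0445). Phykpl on the opposite strand overlaps 29.1% of Hnrnpab exons.

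**Figure D4:**
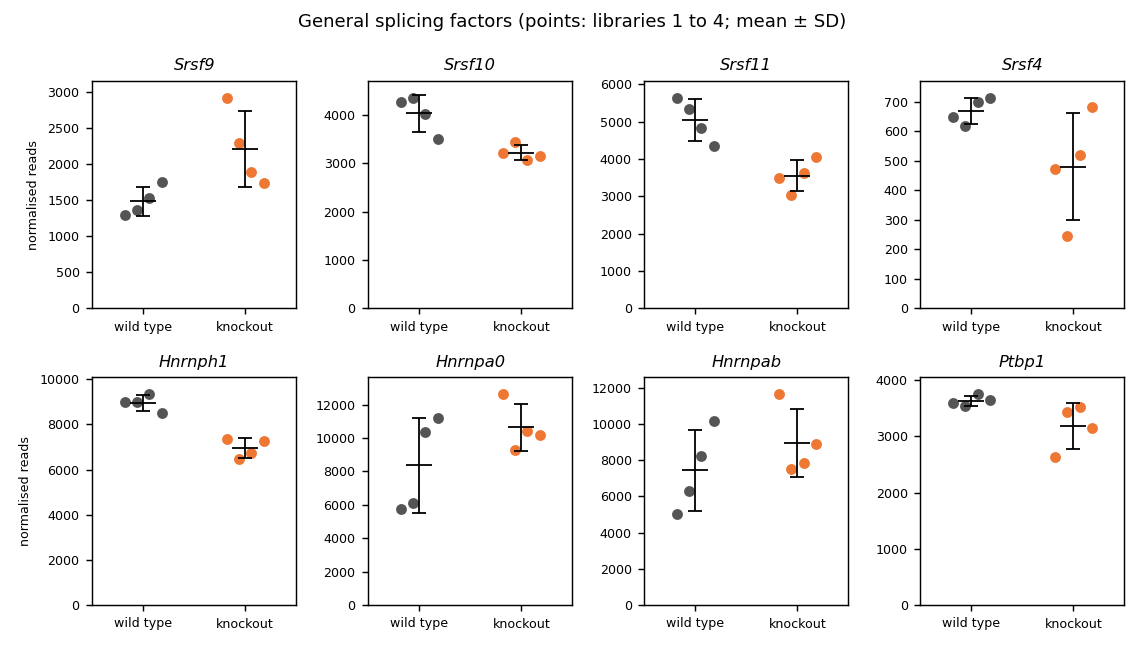
Normalised reads of 8 general regulators in each library (points, libraries 1 to 4 from left to right; bars, mean ± SD; each panel has its own axis from 0). Srsf11 and Hnrnph1 do not overlap between genotypes, Srsf9 overlaps at 1739.5 against 1749, and Hnrnpa0 and Hnrnpab spread widely within wild type.

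The choice of transcript length mattered for Hnrnpr and Hnrnpd, which bind AU-rich and other RNA elements. Hnrnpr has a longest annotated transcript of 21452 nt and was at 0.62 with the trend on that length (limma-trend FDR = 0.0144), but at 0.11 with the median protein-coding transcript (FDR = 0.313) and -0.11 as deposited (FDR = 0.350). Hnrnpd was at 0.55 (FDR = 0.0194), 0.21 (FDR = 0.0915) and 0.12 (FDR = 0.383) in the same order. The longest transcript need not be the one expressed in these cells. Over the 43 genes the Spearman correlation of log2 fold change with longest transcript length was -0.584, and over the 32 general regulators -0.538. Over the 13265 genes that averaged 10 or more normalised reads it was -0.598. These describe genes measured in the same 8 libraries, which are not independent points. The median longest transcript was 3325.5 nt for the general, 5600.5 nt for the neuronal and 6907 nt for the brain and other tissue regulators, against 3405 nt for all protein-coding genes tested.

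**Figure D5:**
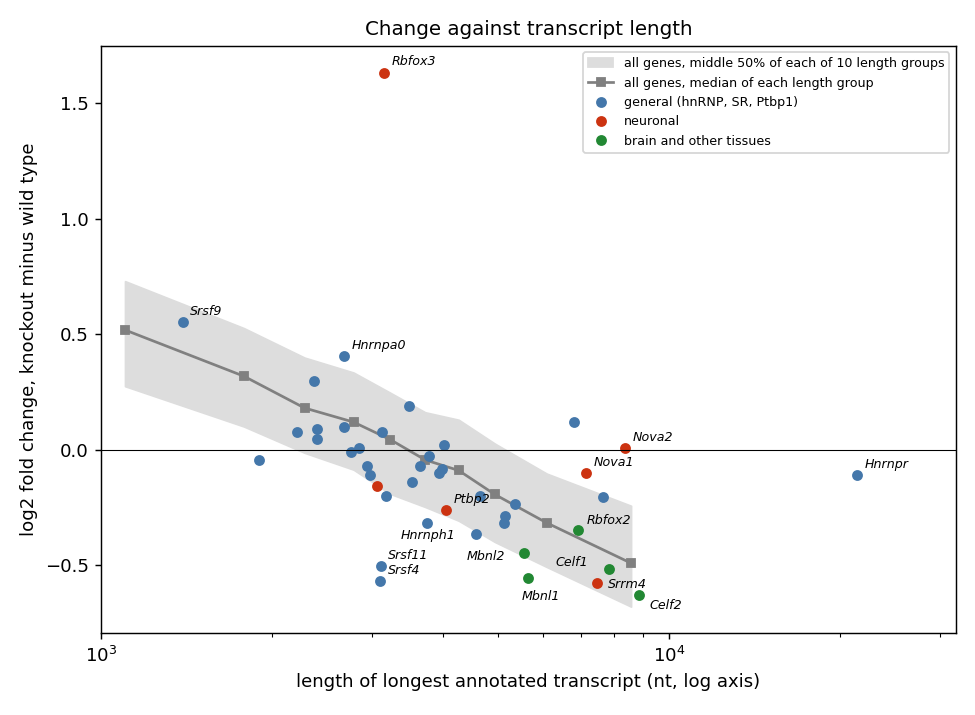
Log2 fold change of each splicing regulator (points, coloured by group) against the length of its longest transcript on a log axis, over the median (grey line) and middle 50% (grey band) of all genes in 10 equal groups by length. The median of all genes runs from 0.52 in the shortest group to -0.49 in the longest, and Celf1 and Rbfox2 lie near that line while Rbfox3 and Srsf11 lie away from it.

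The annotation holds a trait known for SR genes, which tune their own level through transcripts that are degraded. A transcript marked for nonsense-mediated decay was annotated for 9 of 11 SR genes (81.8%), 10 of 20 hnRNP genes (50%), 2 of 6 neuronal regulators and 1 of 5 brain and other tissue regulators, against 26.9% of all protein-coding genes tested. A retained intron was annotated for 72.7% of SR genes, against 55.5% of all protein-coding genes tested. Gene totals pool such transcripts with the coding ones. The median number of annotated transcripts was 7 for SR genes and 8 for hnRNP genes. It was 6.5 for neuronal and 15 for brain and other tissue regulators, against 5 for all protein-coding genes tested. A gene with more transcripts has more chances of either mark, and the shares were not adjusted for this. Among 15 measured genes of the decay pathway 2 were called higher and 2 lower (median log2 fold change 0.04). This is 26.7% called, near the 29.6% of all genes. The kinase gene Smg1 fell from 2783 ± 742 to 1365 ± 437 normalised reads (limma-trend FDR = 0.00728), and the exon junction genes Rbm8a and Eif4a3 rose (log2 0.46 each, FDR = 0.0352 and 0.0364). Smg1 and Rbm8a were still called after subtraction (log2 -0.42 and 0.49, FDR = 0.0102 and 0.0357), and Eif4a3 was at 0.07 (FDR = 0.575).

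Partners of the SR proteins that were called were all lower as deposited, by limma-trend and also by edgeR, DESeq2 and limma-voom. Of 16 SR-related cofactors 0 were higher and 4 lower (median -0.16), among them the nuclear speckle scaffold genes Son, from 9335 ± 1378 to 5782 ± 1141 normalised reads (limma-trend FDR = 0.00698), and Srrm2 (log2 -0.65, FDR = 0.0175). Of 12 SR protein kinase and nuclear import genes 0 were higher and 3 lower (median -0.15), including the import receptor genes Tnpo1 (log2 -0.62, FDR = 0.00678) and Tnpo3 (log2 -0.60, FDR = 0.0130). Once the trend was subtracted, Son, Srrm2 and Tnpo3 stayed lower at -0.27, -0.28 and -0.45 (FDR = 0.0176, 0.0434 and 0.0119), and Tnpo1 was at -0.11 (FDR = 0.226). That fit also called 1 gene of each list higher, Rsrc2 among the cofactors at 0.26 (FDR = 0.0298) and the kinase gene Clk1 at 0.47 (FDR = 0.00302), beside 3 cofactors and 2 kinase and import genes lower. With the median transcript length in the trend, Srrm2 and Tnpo3 were called lower at -0.94 and -0.35 (limma-trend FDR = 0.0375 and 0.0236). Son was there at -0.21 and not called (FDR = 0.0623). With the slope covariate Son, Srrm2 and Tnpo3 were not called (FDR = 0.653, 0.855 and 0.929). As deposited, 25% of each list was called in either direction, near the 29.6% of all genes.

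Other tissue-regulated splicing factors and paralogs of the regulators had 3 higher and 9 lower of 35 measured (median -0.10). This is 34.3% called, against 29.6% of all genes. Msi2, which encodes an RNA-binding protein of stem cells, fell from 4901 ± 402 to 3090.1 ± 595 normalised reads (limma-trend FDR = 0.00577), and Ptbp3, the third member of the Ptbp family, fell from 1714 ± 258 to 1172 ± 95 (FDR = 0.00954). With the trend subtracted they were at -0.28 (FDR = 0.0203) and -0.08 (FDR = 0.412). With the median transcript length in the trend both were called lower, at -0.66 and -0.33 (limma-trend FDR = 0.00791 and 0.0160). The 3 called higher were Msi1, Rbm38 and Rbm4. Msi1, also among the stem cell markers, rose from a mean of 1369 to 1866 normalised reads (log2 0.45, FDR = 0.0133). It was at 0.26 with the trend on the longest transcript subtracted (FDR = 0.0415). The Sm proteins, which ring the small nuclear RNAs, had 3 higher and 0 lower of 8 (37.5% called, median log2 fold change 0.51, median longest transcript 1237.5 nt). Snrpd2, Snrpb and Snrpg were at 0.87, 0.68 and 0.64 (limma-trend FDR = 0.0135, 0.0177 and 0.0208). With the trend on the longest transcript subtracted 0 Sm genes were called by limma-trend, with 3 higher and 1 lower at an unadjusted p under 0.05. With the median transcript length in the trend 3 were called higher and 0 lower. Snrpd2, Snrpb and Snrpg were there at 0.65, 0.44 and 0.53 (limma-trend FDR = 0.0391, 0.0397 and 0.0330). U1 and U2 proteins had 5 higher and 2 lower of 18 (38.9% called, median 0.20), with Sf3b5 and Snrpc higher and Sf3b1, the branch point factor, lower at -0.52 (FDR = 0.0160). After subtraction, where 18.4% of all genes were called, 1 of them was higher and 2 were lower. Snrpc was the higher, at 0.90 (limma-trend FDR = 0.0370). Sf3b5 at 0.91 (FDR = 0.0524) and Sf3b1 at -0.14 (FDR = 0.195) were not called. With the median transcript length in the trend, Snrpc and Sf3b5 were called higher at 0.47 and 1.04 (FDR = 0.0106 and 0.0311). U4/U6.U5 and catalytic proteins had 0 higher and 2 lower of 17 measured (median 0.04), Snrnp200 and Prpf8 at -0.54 and -0.51 (FDR = 0.0120 and 0.0134). This is 11.8% called, against 29.6% of all genes. Subtraction left Snrnp200 lower at -0.24 (FDR = 0.0247) and Prpf8 at -0.16, not called (FDR = 0.115). With the median transcript length in the trend neither was called, at -0.17 and -0.12 (limma-trend FDR = 0.0941 and 0.284).

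Cell type markers differed between genotypes as well. Of 11 neural stem cell and radial glia markers 4 were higher and 0 lower, with a summed level of 140386 to 149329 normalised reads in wild type and 161685 to 200629 in those labelled knockout. Vim, not called (limma-trend FDR = 0.0633), and Fabp7 made up most of that sum. Vim had 63467 to 72713 and 71230 to 106638, and Fabp7 25125 to 29928 and 32813 to 50288. Over all genes 14.8% were called higher and 14.8% lower. With the trend subtracted 3 of the 11 were higher and 0 lower. Hes5 and Hes1, called higher as deposited, were there at 1.01 and 0.61 and not called (limma-trend FDR = 0.0838 and 0.0635). With the median transcript length in the trend both were called higher, at 1.14 and 0.76 (FDR = 0.0220 and 0.0297). With the slope covariate Hes5 was called at 2.12 (FDR = 0.000434), and Hes1 was at 0.20 and not called (FDR = 0.848). Of 10 oligodendrocyte lineage markers 5 were higher and 1 lower, with sums of 50291.6 to 71836 and 62505 to 75867. Olig1 and Olig2, neither called, made up most of these sums. Their means were 41009 and 16724 in wild type and 49182 and 18057 in those labelled knockout. Mbp rose from 46.2 ± 19.3 to 193 ± 14.9 (limma-trend FDR = 0.00103), and Mag from 1.09 to 8.67 (log2 2.39, FDR = 0.0138), while Mog was at 2.37 and 2.49 and not called. Astrocyte markers had 3 higher (Gfap, S100b and Aldoc) and 3 lower of 7 measured, with sums of 10673 to 11787 and 9453 to 10395. Slc1a2 and Aldh1l1, both called lower, made up most of the wild-type sums. Their means were 4957 and 2746 in wild type and 3793 and 1479 in those labelled knockout. The astrocyte sums thus give no direction for the other markers. For microglia 1 of 8 markers was measured, P2ry12 at 26.9 and 16.4 normalised reads. Of the 5 measured endothelial and mural markers 0 were called by limma-trend, edgeR, DESeq2 or limma-voom, and 1 had an unadjusted limma-trend p under 0.05. The part of cell composition in the differences of the splicing regulators was not tested.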

How the data were processed

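Each deposited signal value was a gene's reads over the size factor of its library, as checked on the values: whole reads were recovered for 100% of them at a tolerance of 1e-04 reads. Per the submitters' processing notes, the authors used build mm10 and the tools STAR 2.7.1a, fastp 0.23.4, FastQC 0.12.1 and DESeq2 1.38.3. Not given in the sources used here are the counter, annotation, strand setting and filters. Of 15602 rows, 64 repeated rows were dropped, which left 15538 genes. Identifiers were matched to GENCODE M21 (15535 with a symbol, 14733 protein-coding). Coordinates are 1-based, and promoters are from RefSeq.

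Genotypes, 4 libraries each, were compared on log2(value + 1) with limma-trend and robust empirical Bayes (limma 3.58.1, R 4.3.3), two-sided, adjusted over the 15538 genes by Benjamini-Hochberg, with a threshold of 0.05. Each FDR is from this test. A log2 fold change is given ± SE, and the added 1 draws in changes of genes with few reads. It is a difference of mean logs and can still exceed the log of the ratio of means, as for Rbfox3. A loess trend (span 0.3) with the length and GC content of the longest transcript was subtracted in an alternative. Other alternatives were TMM or library size scaling, a pseudocount of 0.1, a minimum mean of 10, edgeR 4.0.16, DESeq2 1.42.0, limma-voom, a replicate block, the length slope as a covariate, the median transcript length in the trend, and libraries left out. The fit was tested on simulated counts without a length or GC trend, so that test cannot show how the fit handles such a trend. The members and lists were chosen with earlier results of these data known. Values of every library were printed for the tissue-regulated members and for the called general members without overlap, and up to 3 called genes of lowest FDR were taken from each other list. Values printed outside that rule (Srsf9, Srsf4, Ptbp1, Hnrnpa0, Hnrnpab, Msi1 and some markers) were chosen after they were seen.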

Additional observations from a re-analysis of the deposited data

Results flagged for a closer look

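A sample far from the other 3 of its genotype was looked for in each of 86 groups of 4 libraries (43 genes in each genotype), and 2 stood out, where chance gives about 1 in 20. Rbfox2 had 1697 normalised reads in the library labelled knockout 4, against 1384 to 1427 in the other 3, so that library lay closer to wild type (1769 to 2001). Srsf3 had 8158 normalised reads in wild type 3, against 6865 to 6974 in the other 3 wild-type libraries.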

How the results depend on the processing

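TMM scaling, a pseudocount of 0.1, edgeR (3 settings) and limma-voom kept the direction and the side of the threshold of all 44 genes tested here (the 43 regulators and Phf23). The cause of the changes below was not tested. Subtraction of the length and GC trend changed the sign of 11 regulators. Of these, 8 were called in neither fit and 3 were called in at least 1: Hnrnpr to 0.62 (limma-trend FDR = 0.0144), Nova1 to 0.37 (FDR = 0.0319) and Ptbp2 to 0.0313 (FDR = 0.789). In that fit 1222 genes in all were lower. Among the regulators it called 5 higher (2 general, 3 neuronal) and 2 lower, with 0 lower in the neuronal and in the brain and other tissue group. The medians there were -0.0089 for all regulators, 0.0386 general, 0.17 neuronal and -0.13 brain and other tissue, with 7 related splicing genes higher, a median of 0.0285 over those genes and of 0.22 over markers. With the median transcript length in the trend, 1512 genes were lower. The regulators then had 5 lower, 3 of them brain and other tissue and 0 neuronal, and 2 neuronal were higher. The medians were -0.0142 for all regulators, 0.0201 general, -0.0495 neuronal, -0.35 brain and other tissue, -0.00962 related splicing genes (14 lower) and 0.15 markers.

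With the slope covariate, 102 genes were higher and 68 lower, with 0 regulators called in any group in either direction, 0 related splicing genes called either way, and 2 markers higher and 1 lower. The medians were 0.0127 neuronal, -0.31 brain and other tissue, -0.0648 related splicing genes and 0.20 markers. Without the 4 libraries of the steepest slopes, 717 genes were higher and 705 lower. Of the regulators 1 was higher and 3 lower, with 0 general higher, 1 general lower, 2 brain and other tissue lower and 0 neuronal lower, and 1 related splicing gene was higher and 6 lower. The medians were -0.15 for all regulators, -0.15 general, 0.00963 neuronal, -0.31 brain and other tissue and 0.23 markers. That fit has 2 libraries a genotype and rests mostly on variance shared across genes.

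Library size only gave 6 general and 2 neuronal lower, with medians of -0.17 for all regulators, -0.13 general, -0.10 related splicing genes and 0.0326 markers. DESeq2 gave 6 general lower, and a minimum mean of 10 gave 2 neuronal lower. The neuronal group joined with the brain and other tissue group had 6 lower and a median of -0.35. Requiring also a log2 change of 1 or more left 247 genes higher and 309 lower. The labels do not say whether replicate numbers pair the libraries. Correlations of same-numbered libraries, as deviations from the mean of each genotype, were -0.33, -0.13, -0.19 and -0.28. They cannot decide it, since the libraries of each genotype also differed in length slope. With the replicate block 151 genes were higher and 182 lower, with 0 regulators called in any group in either direction, 0 related splicing genes called either way, and 7 markers higher and 4 lower.

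With each library left out in turn, 948 to 2919 genes were higher and 936 to 2942 lower. Regulators higher numbered 1 to 3 (0 to 2 general, 1 neuronal, 0 brain and other tissue), and regulators lower 4 to 11 (2 to 6 general, 0 to 1 neuronal, 2 to 5 brain and other tissue). The medians ran from -0.12 to -0.09 for all regulators, -0.11 to -0.04 general, -0.16 to -0.0101 neuronal, -0.58 to -0.48 brain and other tissue, -0.0543 to 0.00313 related splicing genes and 0.0755 to 0.163 markers. Related splicing genes were higher for 3 to 21 and lower for 9 to 26, and markers for 12 to 15 and 6 to 9. Depth limits Rbfox1, Rbfox3 and Srrm4, with 5 to 52 reads a library.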
